A study of Arabidopsis thaliana with 20 samples.

Results

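CHLM (AT4G25080) and AT1G74470 are nuclear genes of Arabidopsis thaliana for enzymes of chlorophyll synthesis in the plastid. They were selected by name, as the rows of the deposited value table that the platform annotation ties to exactly 1 gene, where that gene is one of these 2. Each had 1 such row, probe 2091 for CHLM and probe 2360 for AT1G74470, among the 692 rows tied to 1 gene and the 3439 rows in all. No row that the annotation ties to several genes holds either of them. The probe sequences were not used here, so the part of a transcript that a probe reads is not known; the reference table lists 6 transcripts for CHLM and 1 for AT1G74470.

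Chlorophyll is built from the amino acid glutamate through a chain of ring-shaped tetrapyrroles. After magnesium has been inserted into protoporphyrin IX, the step that sends the ring into the chlorophyll branch, CHLM adds a methyl group to one of its side chains. The ring becomes chlorophyll when a long hydrophobic phytyl tail is joined to it. AT1G74470, geranylgeranyl reductase, makes that tail by reducing the geranylgeranyl group, and the same phytyl group goes into tocopherols (vitamin E) and phylloquinone. The finished pigment is bound by antenna and reaction centre proteins, of which LHB1B2, a chlorophyll a/b-binding protein of photosystem II, is one.

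All samples were total RNA from wild-type plants of ecotype Columbia 0, with no mutation or transgene named in the labels. In one group, 10 samples came from plants at a normal CO2 level, whose value is not stated, with day 0 in their titles. In the other, 10 samples came from plants that ended their growth with 96 h at 0.003% CO2 by volume, with day 4 in their titles. Low CO2 and the passage of time cannot be told apart in this design. The labels give no tissue, plant age or light regime, do not say which numbers are separate plants, and name no batch.

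The values are the authors' processed array intensities. Their scale is not stated and was read from the values, which are never below 0 and spread as linear intensities do, and every fold below rests on that reading. The table has normal CO2 column totals of 3495 to 3749 and low CO2 totals of 3604 to 3797. Neighbouring numbers (1 and 2, 3 and 4, up to 9 and 10) resembled each other: for 20 of 20 columns, the neighbour was the column of the group whose deviations correlated best. That correlation ran from 0.29 to 0.87 across probes, which are not independent replicates, and no other column reached more than 0.16. Neighbours were averaged and counted once, giving n = 5 averages per group. Nothing in the labels ties the averages to separate plants, so the p-values rest on a spread that may be technical. Levels below are log2 signal relative to the median of the column, and a change is the low CO2 mean minus the normal CO2 mean. The number of arrays limits the precision, and how far a probe lies above its local background is not known.

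Both genes had lower means in low CO2, and neither difference passed the test across all probes. In whole-plant or tissue RNA, fewer cells of a type and less RNA per cell cannot be told apart. CHLM was 1.41-fold lower, with a log2 change of -0.50 ± 0.25 (SE) and a 95% interval of -1.04 to 0.05. AT1G74470 was 1.25-fold lower, with a log2 change of -0.32 ± 0.19 (SE) and a 95% interval of -0.73 to 0.09. The adjusted p in limma, n = 5 averages per group, was 0.349 for CHLM and 0.41 for AT1G74470. In this fit 2.11% of the 3277 tested probes passed at an adjusted p under 0.05, and 1.74% passed in the downward direction, so 0 of 2 members was the count to set beside these shares. The intervals reach falls of up to 2.06-fold for CHLM and 1.66-fold for AT1G74470, and rises of up to 1.04-fold and 1.06-fold. A fall in signal larger than 2.06-fold for CHLM or 1.66-fold for AT1G74470 thus lies outside these intervals, while no change at all lies inside them. The intervals rest on a spread that may be technical, and they do not bound a fall in transcript.

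CHLM, the methyltransferase, gave a dim signal. Its intensity in normal CO2 was lowest at 0.183, had a median of 0.273 and was highest at 0.405. In low CO2 it was lowest at 0.136, had a median of 0.201 and was highest at 0.27. The ranges overlapped, and none of the 20 columns held a 0 for it. Its mean log2 level lay above that of 31.2% of the tested probes, which ranks brightness and not amounts of transcript.

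On the log2 scale the CHLM averages in normal CO2 were -1.23, -1.20, -0.27, -0.22 and -0.53, in the order of the column numbers. In low CO2 they were -1.68, -1.40, -0.82, -1.03 and -0.99. The means were -0.69 ± 0.49 and -1.18 ± 0.35 (SD, n = 5 averages each). The 3 highest normal CO2 averages, those of columns 5 to 10, lay above every low CO2 average, and the 2 lowest low CO2 averages, those of columns 1 to 4, lay below every normal CO2 average. In between, the normal CO2 averages of columns 1 to 4 sat inside the low CO2 range. The place of normal CO2 columns 9 and 10 rests on centring the columns on their medians. Before centring, their signals were 0.183 and 0.287, against 0.251 and 0.219 in low CO2 columns 7 and 8. An exact permutation test of the means gave p = 0.103 (two-sided, 5 against 5 averages, smallest possible p 0.00794). Over the 3135 probes with all 10 averages, 15.9% had an exact p under 0.05 and 3.29% had a low CO2 group lying wholly below the normal CO2 group, and CHLM was in neither count.

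CHLM varied with the sample number in both groups. The averages of columns 1 to 4 lay below those of columns 5 to 10, by a gap of 0.67 within a range of 1.01 for normal CO2, and by a gap of 0.37 within a range of 0.86 for low CO2. In normal CO2 this split rests on the centring. Before it, column 9 held the lowest signal of that group, 0.183, and columns 1 to 4 held 0.196 to 0.259. In low CO2, columns 1 to 4 held 0.136 to 0.192 and columns 5 to 10 held 0.187 to 0.270. Set number against number, CHLM was lower in low CO2 in 5 of 5 averages, with differences of -0.46, -0.20, -0.55, -0.82 and -0.46. The share of all probes lower at 5 of 5 numbers was not counted, so how common this is is not known. The difference in columns 9 and 10 came mostly from the centring. Before it, their signals were 0.183 and 0.287 in normal CO2 against 0.187 and 0.270 in low CO2. The main fit did not take the numbers to pair the samples. Whether a number marks a shared plant, day or array is not stated in the labels. With the replicate number as a block, the SE of CHLM in limma was 0.18 in place of 0.25 and the adjusted p was 0.154, still above the threshold. Neighbouring columns of CHLM had a median gap of 0.10 in normal CO2 and 0.19 in low CO2. The widest gap, 0.65, was between normal CO2 columns 9 and 10, at -0.86 and -0.21.

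AT1G74470, the reductase, gave a bright signal. Its intensity in normal CO2 was lowest at 2.87, had a median of 3.29 and was highest at 3.88. In low CO2 it was lowest at 1.67, had a median of 2.63 and was highest at 3.63. The 2 ranges overlapped over most of the normal CO2 range. Its mean log2 level lay above that of 94.1% of the tested probes.

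The log2 averages of AT1G74470 in normal CO2 were 2.58, 2.89, 2.76, 2.92 and 3.29, in the order of the column numbers. In low CO2 they were 2.44, 2.87, 2.77, 2.10 and 2.66. The means were 2.89 ± 0.26 and 2.57 ± 0.31 (SD, n = 5 averages each). In columns 3 to 6 the groups were level, with same-number differences of -0.02 and 0.01, while the difference was -0.14 in columns 1 and 2, -0.82 in columns 7 and 8 and -0.64 in columns 9 and 10. Set number against number, the difference on this centred scale thus lay mainly in the last 4 numbers. The main fit did not pair the numbers. Before centring, the pattern differed in part. Columns 1 and 2 then held signals of 3.88 and 3.17 in normal CO2 against 2.62 and 2.59 in low CO2. Columns 5 and 6 held 3.23 and 3.29 against 2.57 and 2.79, and were not level. Columns 9 and 10 held 3.21 and 3.29 against 3.02 and 2.64. Columns 7 and 8 still differed, at 3.46 and 2.87 against 2.53 and 1.67, and columns 3 and 4 stayed close. In the main fit the change of -0.32 shrank most, to -0.21, on omission of low CO2 columns 7 and 8. Omission of normal CO2 columns 9 and 10 gave -0.22. Dropping normal CO2 columns 7 and 8 left it at -0.31, and dropping low CO2 columns 9 and 10 enlarged it to -0.34. The exact permutation test gave p = 0.119 (two-sided, 5 against 5 averages), and 2 of 5 low CO2 averages lay below every normal CO2 average.

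The lowest value of AT1G74470 came from low CO2 columns 7 and 8, at 2.39 and 1.82, a gap of 0.57 that was the widest between neighbours for this gene. Without them its log2 change was -0.21, the smallest of any setting, and limma's adjusted p was 0.624. Neighbours had a median gap of 0.04 (normal CO2) and 0.13 (low CO2). Normal CO2 columns 1 and 2 lay apart too, at 2.73 and 2.44, as did columns 7 and 8, at 3.05 and 2.80. The pooled SD between averages was 0.28 for AT1G74470, above that of 30.0% of the tested probes, and 0.43 for CHLM, above that of 62.6%. The median over all tested probes was 0.37.

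**Figure D1:**
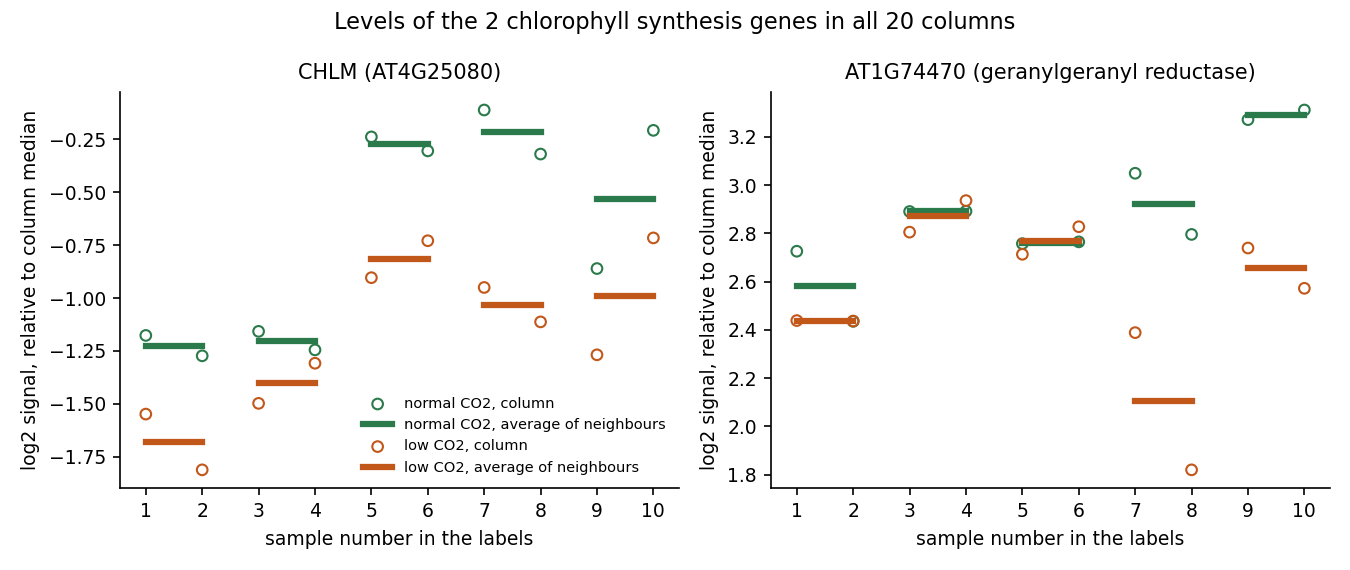
Log2 signal relative to the column median (vertical axis) against the sample number in the labels (horizontal axis) for CHLM and AT1G74470. Open circles are single columns and bars are averages of neighbouring columns. CHLM lies lower in columns 1 to 4 than in columns 5 to 10 in both groups. Its low CO2 average is the lower one at 5 of 5 numbers, a count not set against all probes. AT1G74470 is level between the groups in columns 3 to 6 and lower in low CO2 in columns 7 to 10. These patterns are those of the centred scale, and they differ in part in the signals before centring. The vertical axes differ between the panels and do not start at 0.

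Set against all probes, the CHLM change was larger in size than most, and that of AT1G74470 lay nearer the median. The median log2 change of the 3277 tested probes was 0.01, and 48.7% of them were below 0. For the 651 tested probes with 1 gene the median was 0.06. Of the tested probes, 86.4% had a higher change than CHLM and 77.6% a higher change than AT1G74470. By size without regard to direction, CHLM exceeded 78.5% and AT1G74470 exceeded 60.2% of the tested probes, whose median size was 0.25. Unadjusted, the limma p was 0.0717 for CHLM and 0.114 for AT1G74470, and 17.4% of all tested probes had an unadjusted p under 0.05. The share of lower probes varies with the remainder of the probe number divided by 6: 55.4% in the class of LHB1B2, against 45.2% in that of CHLM and 44.7% in that of AT1G74470. The part of this pattern in the changes was not tested.

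The 2 genes did not differ detectably in their change. Their log2 ratio within an average, CHLM over AT1G74470, averaged -3.58 ± 0.47 for normal CO2 and -3.75 ± 0.45 for low CO2 (SD, n = 5 averages each); it serves only as a change, since signals of different probes are not comparable as amounts. The CHLM change minus the AT1G74470 change was -0.17 ± 0.29 (SE), with a 95% interval of -0.85 to 0.50 and p = 0.571 in the exact permutation test (two-sided). The interval leaves room for a difference of either sign, and the sign turned under cyclic loess normalization, at 0.0029.

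Across the 10 averages the levels of the 2 genes were weakly related. Pearson's r was 0.44 (permutation p = 0.199) and Spearman's rho 0.49 (permutation p = 0.154), n = 10, and this was the 1 relation tested. Without the 2 averages farthest from the CHLM median, normal CO2 columns 5 to 8, r was 0.47 (n = 8, permutation p = 0.232). The r of the deviations from the group means was 0.21 (n = 10, permutation p = 0.545). With no centring of the columns r was 0.19, with quantile normalization 0.24 and with cyclic loess 0.27. Whether averages of one number share plants or arrays is not known. In the plot of one gene against the other, low CO2 columns 7 and 8 stand lowest for AT1G74470 but in the middle for CHLM. Normal CO2 columns 9 and 10 stand highest for AT1G74470 on this centred scale. Before centring, their signals of 3.21 and 3.29 were not the highest of the group, as column 1 held 3.88.

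**Figure D2:**
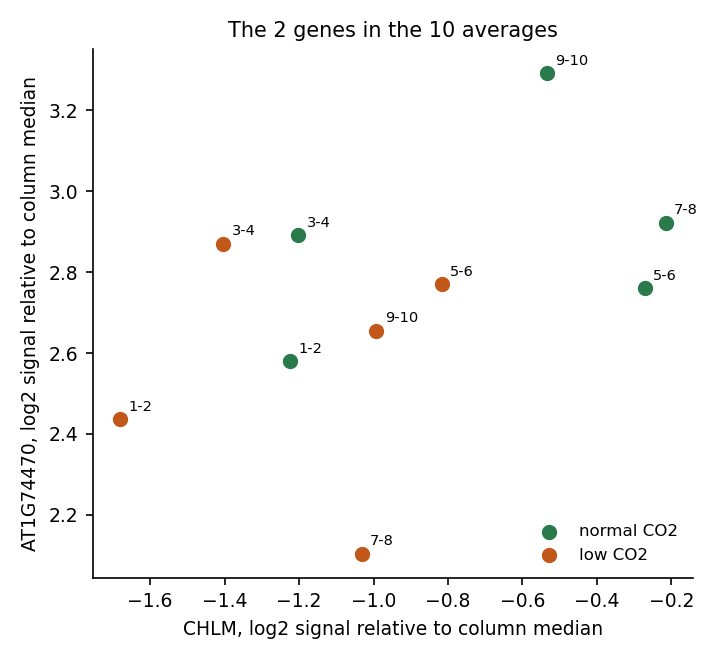
AT1G74470 (vertical axis) against CHLM (horizontal axis), both as log2 signal relative to the column median, 1 point per average, labelled with its column numbers. The 5 normal CO2 averages and the 5 low CO2 averages overlap in both directions, and r was 0.44 over the 10 points. Neither axis starts at 0.

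Other 1-gene probes followed each gene more closely than the 2 followed each other. Among 627 such probes with all 10 averages, r with CHLM was highest for AT2G05120 (0.85), AT2G47360 (0.82), APS4 (0.81), AT1G62250 (0.78) and AT3G18870 (0.77). AT1G74470 ranked at place 93 in that order. For AT1G74470 the highest r was that of PSAN (0.89), a subunit of photosystem I, followed by AT3G23940 (0.88), AT4G27390 (0.81), ATSPS4F (0.80) and AT1G21660 (0.78), and CHLM ranked at place 86. These are the highest of many values over only 10 averages and are given as a description. The order for AT1G74470 changed with the setting. The r of AT4G27390 lay above that of PSAN with quantile normalization (0.89 against 0.69), no centring (0.84 against 0.67) and cyclic loess (0.90 against 0.78). With columns centred but low CO2 columns 7 and 8 left out, the r of AT3G23940 lay above that of PSAN (0.95 against 0.92). The r of AT3G23940 was 0.58 with quantile normalization. With deviations from the group means in place of levels, r was 0.78 for AT2G05120 with CHLM and 0.86 for PSAN with AT1G74470. Of the 10 genes, AT1G62250 passed the test between the groups, with a log2 change of -1.28 and limma's adjusted p = 0.0233. Over all tested probes 2.11% passed. The r over both groups includes the group difference, so the choice of these genes favours ones lower in low CO2. PSAN had a log2 change of -1.39 and limma's adjusted p = 0.0835.

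The rest of the pathway was thinly covered. Of 77 genes in 6 lists on chlorophyll and its neighbouring pathways, 5 had a tested probe of their own, 7 lay only on probes tied to several genes and 65 were on no probe that the annotation lists. The list of chlorophyll and tetrapyrrole synthesis held 34 genes, of which CHLM, AT1G74470 and HEMA3 were tested. Of these 3, limma called 0 in either direction, 0 had an unadjusted p under 0.05, and all 3 changes were below 0. Over all tested probes these shares were 2.11%, 17.4% and 48.7%. The median change of these 3 was that of AT1G74470, -0.32, against 0.01 over all tested probes. The lists of plastid isoprenoid supply, chlorophyll breakdown and regulators of chlorophyll synthesis genes had no tested member and are not analysed here.

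HEMA3 belongs to the family of glutamyl-tRNA reductases, which catalyse an early, rate-limiting step of tetrapyrrole synthesis. Its log2 level was 0.58 ± 0.23 in normal CO2, from 0.31 to 0.81, and 0.27 ± 0.38 in low CO2, from -0.26 to 0.63 (SD, n = 5 averages each). The groups overlapped, with 2 of 5 low CO2 averages below every normal CO2 average. The log2 change was -0.31 ± 0.19 (SE), with limma's adjusted p = 0.439. It was -0.18 without low CO2 columns 9 and 10.

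SIRB, sirohydrochlorin ferrochelatase, puts iron into the ring of siroheme, the cofactor of nitrite and sulfite reductases, on a branch that leaves the pathway before protoporphyrin. Its log2 level was 0.78 ± 0.19 with normal CO2 and 0.90 ± 0.33 with low CO2 (SD, n = 5 averages each). Its log2 change was 0.13 ± 0.18 (SE), with limma's adjusted p = 0.748. It was 0.0057 without low CO2 columns 9 and 10, 0.057 without normal CO2 columns 9 and 10, 0.040 with quantile normalization and 0.054 with cyclic loess.

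AT1G78620, which the reference table lists without a name, was the 1 tested gene of the list on tocopherol and phylloquinone synthesis, products that take up the phytyl group made by geranylgeranyl reductase. Its log2 level was -1.11 ± 0.35 in normal CO2, from -1.52 to -0.55, and -1.80 ± 0.42 in low CO2, from -2.25 to -1.18 (SD, n = 5 averages each). 4 of its 5 low CO2 averages lay below every normal CO2 average. Its log2 change was -0.69 ± 0.25 (SE), the largest fall among the 5 pathway genes tested. The exact permutation test gave p = 0.0238 (two-sided, 5 against 5 averages). Of the 3135 probes with a value in every average, 15.9% had an exact p under 0.05. Across all probes limma's adjusted p for AT1G78620 was 0.19, above the threshold. The adjusted p fell to 0.0156 in the limma fit of 20 separate columns, where neighbours count as independent, and missed the threshold in the other settings run.

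**Figure D3:**
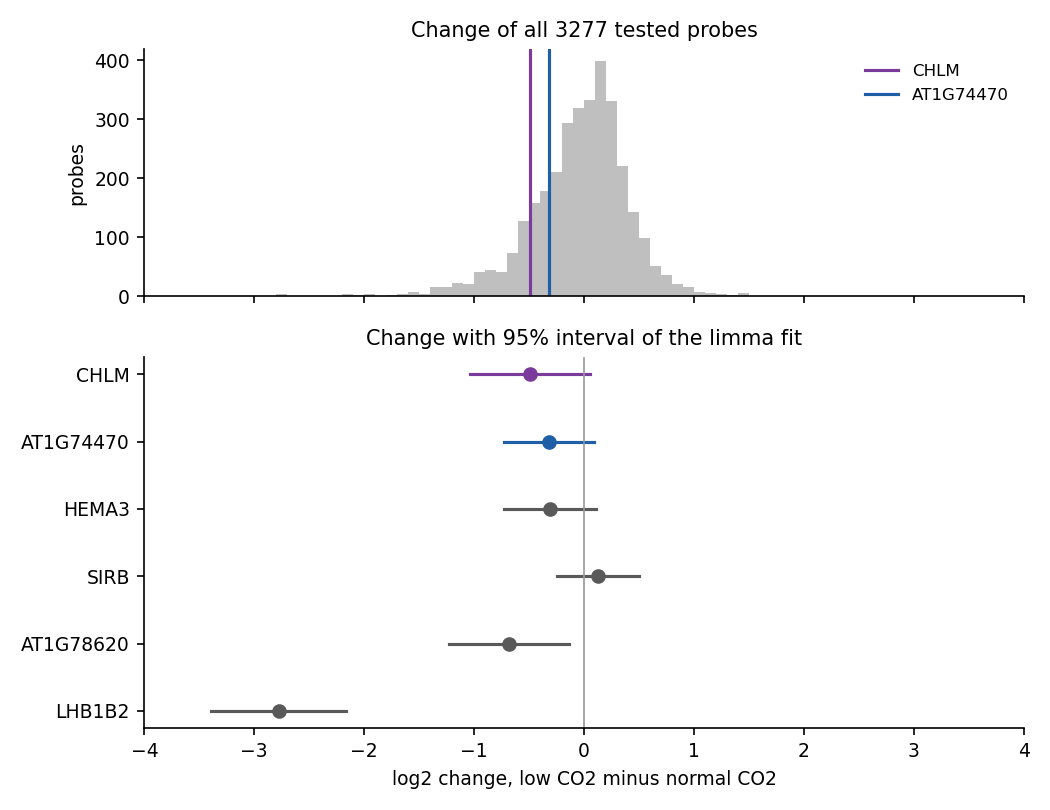
Upper panel, number of probes (vertical axis) by log2 change, low CO2 minus normal CO2 (horizontal axis), over the 3277 tested probes, with lines at CHLM and AT1G74470. Lower panel, the log2 change of the 5 pathway genes tested and of LHB1B2 as points, with 95% intervals of the limma fit as bars. The intervals of CHLM, AT1G74470, HEMA3 and SIRB include 0, that of AT1G78620 lies from -1.23 to -0.14, not adjusted for the number of probes tested, and that of LHB1B2 from -3.39 to -2.17.

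The changes of both genes are set beside that of LHB1B2 (AT2G34420), the measured antenna gene, as a description. LHB1B2 was chosen with its fall in these samples known and had the smallest p of all tested probes, rank 1 of 3277, so a smaller change in the other genes was fixed by that choice and no test of it is given. Its averages ran from 2.96 to 4.79 in normal CO2 and from 0.89 to 1.79 in low CO2, with no overlap, a log2 change of -2.78. Near-identical LHCB1 genes may add to this probe's signal. The CHLM change minus the LHB1B2 change was 2.28 ± 0.30 (SE), with a 95% interval of 1.60 to 2.97. The AT1G74470 change minus the LHB1B2 change was 2.46 ± 0.23 (SE), with a 95% interval of 1.92 to 2.99. Both intervals make no allowance for the choice of LHB1B2 and are not to be read as a test.

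Neither member passed the test in any of the 20 other settings run for it, and both changes stayed below 0 in all of them. The CHLM log2 change was furthest from 0, at -0.63, when normal CO2 columns 1 and 2 were left out, and nearest to it, at -0.37, when low CO2 columns 1 and 2 were left out. The AT1G74470 log2 change ran from -0.42, with cyclic loess, to -0.21, without low CO2 columns 7 and 8. Limma's adjusted p ran from 0.0722 to 0.582 for CHLM and from 0.0924 to 0.624 for AT1G74470, the lowest in both being the fit with 20 separate columns. That fit counts neighbours, which deviated together, as independent.

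**Figure D4:**
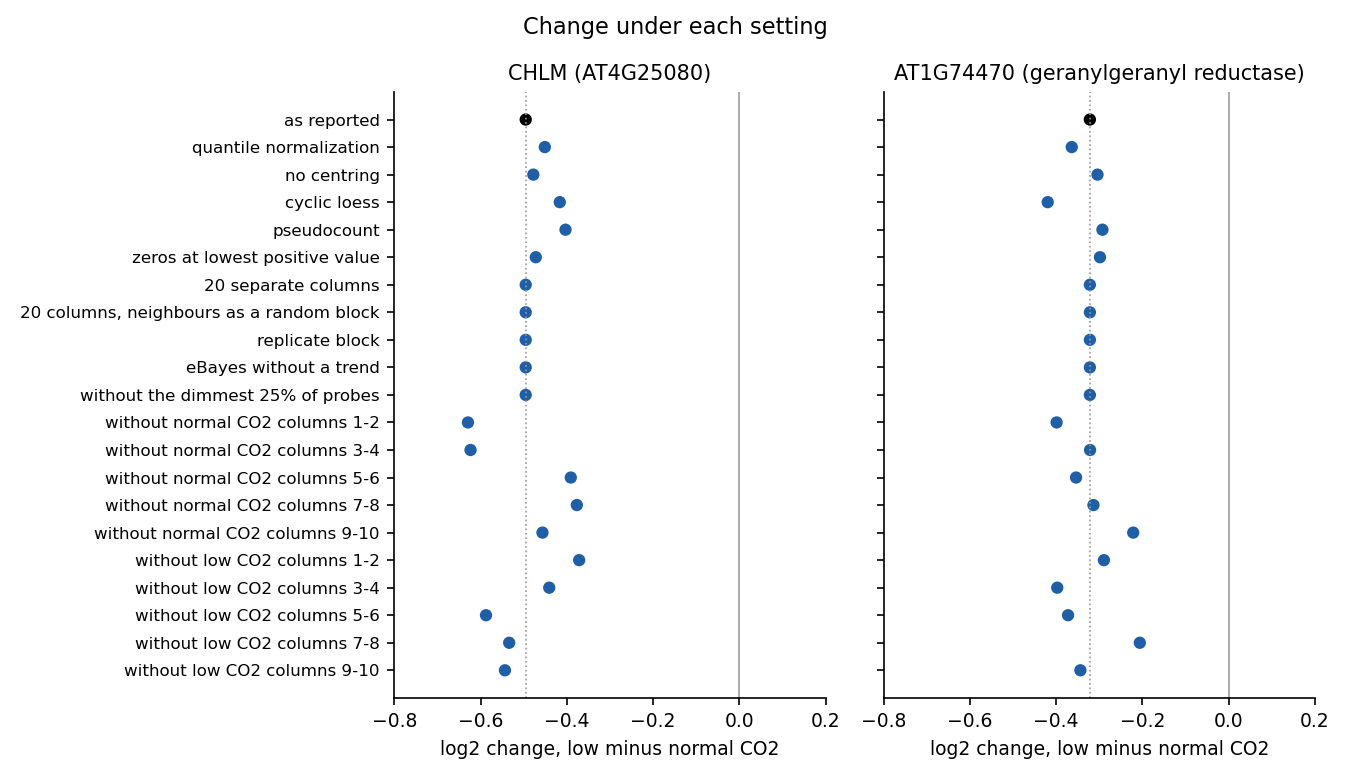
Log2 change of CHLM and AT1G74470, low CO2 minus normal CO2 (horizontal axis), under each setting (vertical axis), with the reported value in black and the others in blue. The solid line marks 0 and the dotted line the reported value. All points lie below 0, between -0.63 and -0.37 for CHLM and between -0.42 and -0.21 for AT1G74470.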

How the data were processed

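The authors deposited a processed table of array intensity, taken here as linear from its values, with a value for every probe in each of the 20 samples and none below 0. How they corrected background and scaled the arrays is stated in none of the sources used here. Groups and sample numbers came from the titles. Gene names came from the platform annotation, updated through the RefSeq table (TAIR10.1), which matched 690 of the 692 probes with 1 gene; no coordinates are printed because the array's build is not given.

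Values of 0 were treated as missing, the others put on the log2 scale, centred on the column median and averaged over neighbouring numbers. Column medians ran from -1.59 to -0.77 before centring. Probes with at least 3 averages per group were tested with limma 3.58.1 (eBayes with a trend) in R 4.3.3 across all 3277 probes, with Benjamini-Hochberg adjustment and a threshold of 0.05, and single values with exact permutation tests in scipy 1.17.1. The code was tested on simulated data. Intervals of a difference of changes assume equal spread in both groups.

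The members, pathway lists, tests and alternatives were chosen with earlier results of these data known. Named are the members, LHB1B2, each listed pathway gene with a tested probe of its own, and the 5 genes with the highest r to each member. Same-numbered averages correlated at -0.07 to 0.39 across groups, above 0.1 in 3 of 5. The main fit did not take the numbers to pair the samples, and a fit with the replicate number as a block is given beside it.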

Additional observations from a re-analysis of the deposited data

How the results depend on the processing

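The count of 69 probes past the threshold set the background for both genes and moved with the processing. It was 20 at an adjusted p under 0.01, by construction, 589 with 20 separate columns, 186 with neighbours as a random block (correlation 0.75), 30 with zeros at the lowest positive value and 34 with eBayes without a trend. Leaving out 1 average at a time gave 25 to 123 probes, the highest without normal CO2 columns 1 and 2 and the lowest without normal CO2 columns 5 and 6 or low CO2 columns 3 and 4. It stayed within 1.5 times of 69 in the other settings, 89 with the replicate number as a block. The cause of these moves was not tested. The CHLM change minus the AT1G74470 change, -0.17, turned to 0.0029 with cyclic loess (exact permutation p = 0.992, 5 against 5 averages) and ran from -0.33 to -0.04 over the left-out averages. The r between the 2 genes missed 0.05 in all 16 settings, from 0.19 to 0.55. The replicate block changed no call of the 2 genes (adjusted p in limma 0.154 for CHLM and 0.363 for AT1G74470), and 3 of 5 averages correlated best with their own number. With 5 averages per group the median SE over all probes was 0.23 on the log2 scale. The settings for LHB1B2, the other pathway genes and the most alike genes were added after the data were seen; of these results, AT1G78620 alone changed its side of the threshold, and it was not among the probes kept without the dimmest 25%.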
